A study of Mus musculus with 6 samples.

Results

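The genes for calcium release from intracellular stores and for the calcium pumps were examined in RNA sequencing of BALB/c mice, an inbred strain, in the anterior cingulate cortex at the midline of the frontal lobe. They are 10 of the 45777 genes in the deposited count table, chosen by symbol: the inositol trisphosphate (IP3) receptor genes Itpr1, Itpr2 and Itpr3, the ryanodine receptor genes Ryr1, Ryr2 and Ryr3, the store pump gene Atp2a2, and the plasma membrane pump genes Atp2b1, Atp2b2 and Atp2b4. The stress group (smSDS) had 3 libraries, from animals given social defeat for 5 days, that is, repeated attack by a dominant mouse. The non-stress group (NS) had 3 libraries, from animals not so treated. All animals were of the same strain and carried no named allele, and the labels used here give neither age nor sex, nor whether each library came from 1 animal, so p-values here reflect only the spread of these samples, and that may be technical. The series title places calcium and cyclic AMP signalling downstream of G protein-coupled receptors in stress susceptibility, and the comparison addresses whether the genes that release and clear calcium differed in expression.

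Calcium is stored in the endoplasmic reticulum at a far higher concentration than in the cytosol. Receptors coupled to phospholipase C make the soluble messenger IP3, which opens the IP3 receptors, whereas the ryanodine receptors open in response to calcium itself and amplify the signal. The SERCA pump encoded by Atp2a2 returns calcium to the store, and the plasma membrane calcium ATPases (PMCA) of the Atp2b genes expel it from the cell. In neurons these proteins shape calcium transients in dendrites and axon terminals, and in glia the IP3 receptors carry most store release.

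The libraries held 41623899 to 44882821 counts in stress and 41976809 to 47212982 in non-stress. On the first principal component of log2 CPM (counts scaled to a common library total), which held 34.5% of the variance, the stress libraries lay at -20.38 to -14.89. Of the non-stress libraries, number 1 lay near them at -11.66, and numbers 2 and 3 lay apart at 37.38 and 27.43. The labels name no batch. Cortical neuron and astrocyte markers were abundant. Summed over 6 excitatory neuron markers the level was 3378 to 3580 CPM in stress and 3436 to 3716 CPM in non-stress, and over 6 astrocyte markers it was 1430 to 1485 CPM in stress and 1440 to 1502 CPM in non-stress. Marker sums of inhibitory neurons, oligodendrocytes, microglia, endothelial and mural cells, erythroid cells, choroid plexus, meninges and striatal neurons also overlapped between the groups. Those of oligodendrocyte precursors (4 markers, 54.7 to 56.9 CPM in stress against 50.4 to 53.0 CPM in non-stress), pituitary (4 markers, 3.45 to 13.8 CPM in stress against 1.14 to 2.81 CPM in non-stress) and skeletal muscle (4 markers, 17.2 to 18.5 CPM in stress against 15.5 to 16.1 CPM in non-stress, most of it Acta1) did not overlap and were higher in stress. A marker sum can hide single markers that differ. Of 7 inhibitory neuron markers 4 had an unadjusted p under 0.05 by edgeR, against 12.1% of all genes. Sst was higher in stress (log2 fold change 0.27), while Slc32a1 (-0.49), Lhx6 (-0.18) and Gad1 (-0.11) were lower. So had 2 of 6 mural markers, Rgs5 and Kcnj8, both lower, and 1 of 6 excitatory neuron markers, Neurod6, higher. Of 5 striatal neuron markers 1 had, Drd2, lower (-0.85), and of 6 astrocyte markers 1, Aldh1l1, lower. Among 6 endothelial markers 1 had, Slco1c1, higher, as had the 2 tested pituitary markers, Gh (5.69) and Pomc (0.99), both higher. The oligodendrocyte, oligodendrocyte precursor, choroid plexus, meningeal, skeletal muscle and erythroid lists had 0. Of 6 microglia markers 0 had, but 2, Tmem119 and Csf1r, lay lower in stress without overlap, as did 9.43% of all genes, and 0 higher. No marker of these lists passed after adjustment over all genes. No marker was at 0 in all libraries, and the part of these markers in the results below was not tested. In bulk tissue fewer cells of a type and less RNA per cell cannot be told apart.

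All 10 genes were detected in every library and passed the filter on low counts, and together they took 0.207% to 0.209% of the counts in stress and 0.207% to 0.219% in non-stress. By the quasi-likelihood test of edgeR none had an adjusted p (Benjamini-Hochberg) under 0.05 over the 19227 genes tested, of which 0.00520% did. DESeq2 also called 0 of the 10, against 0.828% of all genes, and limma-voom 0, against 0.0104%. Below an unadjusted p of 0.05 there were 3 of the 10 by edgeR (Atp2b2, Itpr1 and Itpr2), 3 by limma-voom and 2 by DESeq2, against 12.1%, 12.6% and 10.2% of all genes by the same tools. All 3 of edgeR were lower in stress, as were 6.27% of all genes, while 0 were higher, against 5.80%. In 4 of the 10 (Itpr1, Itpr2, Atp2a2 and Atp2b2) every stress library lay below every non-stress library, against 9.43% of all genes tested in that direction and 17.9% in either. No gene of the 10 lay above without overlap. Leaving out a library cannot make such groups overlap, so these 4 genes stayed without overlap by construction. Others joined them in 3 of the 6 cases. Without non-stress 1 these were Itpr3 lower and Atp2b4 higher, against 37.6% of all genes without overlap in either direction. Without stress 3 they were Itpr3 lower and Ryr3 higher, against 29.9%, and without non-stress 3 they were Ryr3 and Atp2b1, both higher, against 29.7%. The median log2 fold change over the 10 was -0.01, beside 0.00 over all genes, with 5 genes above 0 and 5 below.

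**Figure D1:**
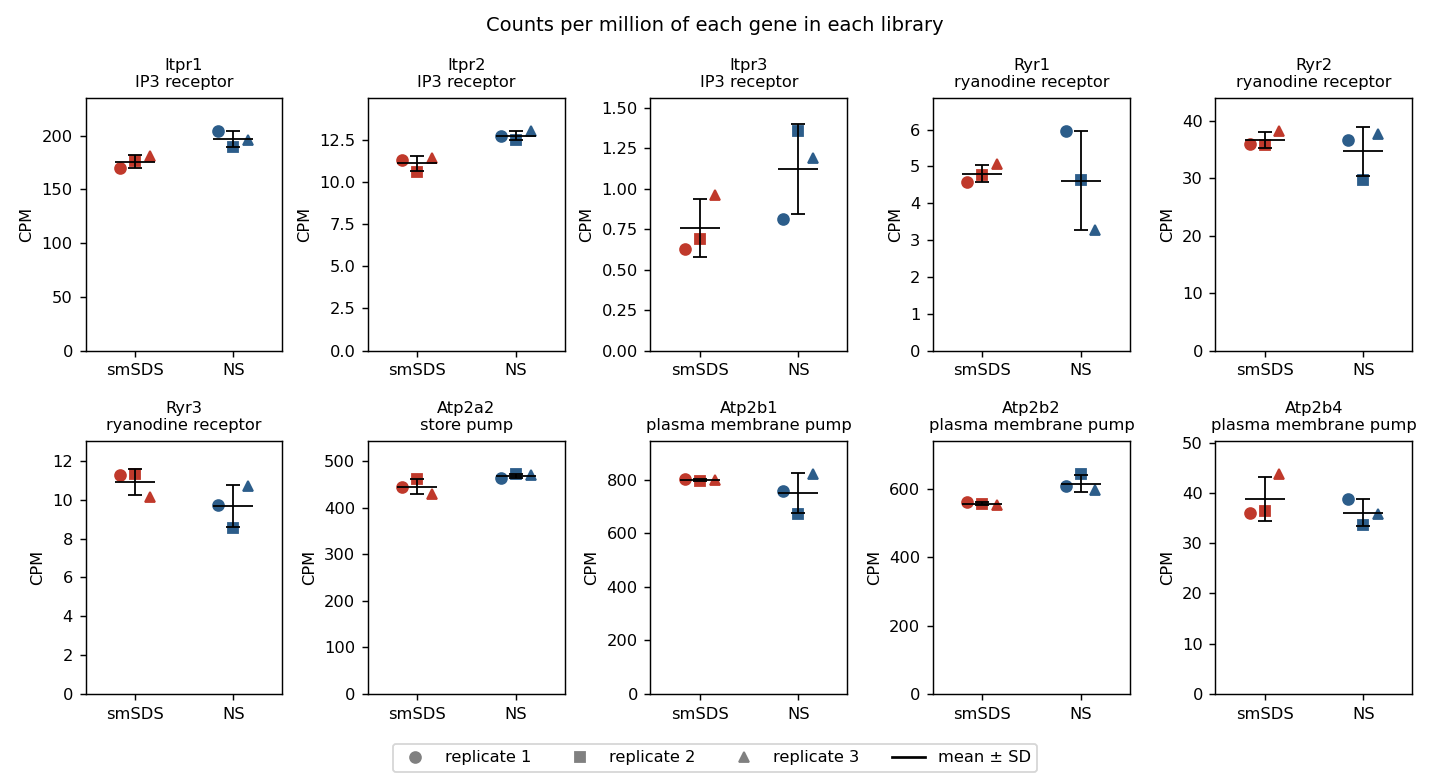
Level of each of the 10 genes in CPM (y axis, from 0) in the 3 stress libraries (smSDS, red) and the 3 non-stress libraries (NS, blue), with symbols for the replicate number and black bars for the mean ± SD. The groups do not overlap in Itpr1, Itpr2, Atp2a2 and Atp2b2, where stress is the lower one, and they overlap in the other 6 genes.

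The IP3 receptor genes all had log2 fold changes below 0. Itpr1 encodes the main IP3 receptor of neurons, the form most abundant in cerebellar Purkinje cells (chromosome 6, 108213083 to 108551116, GRCm38). It stood at 170, 177 and 181 CPM in stress libraries 1, 2 and 3, against 204, 189 and 196 CPM in non-stress libraries 1, 2 and 3. The highest stress library lay below the lowest non-stress library, non-stress 2. The means were 176 ± 5.69 CPM in stress and 197 ± 7.52 CPM in non-stress (SD, n = 3 each), a log2 fold change of -0.16 (SE 0.04, 95% interval -0.26 to -0.06, adjusted p = 0.344). That is 0.895 times the non-stress level, and the value stayed between -0.18 and -0.13 with any 1 library left out.

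Itpr2, the IP3 receptor gene known for its expression in astrocytes (chromosome 6, 146108299 to 146502258), was present at a far lower level. Its 3 stress libraries gave 11.3, 10.6 and 11.4 CPM, against 12.7, 12.5 and 13.0 CPM in the non-stress libraries. These groups did not overlap either, and the spread within each was small, at 11.1 ± 0.452 CPM in stress and 12.7 ± 0.266 CPM in non-stress (SD, n = 3 each). The log2 fold change was -0.20 (SE 0.08, 95% interval -0.37 to -0.03, adjusted p = 0.385). The summed astrocyte markers, most of which is Slc1a2 and Slc1a3, overlapped between the groups. Of the 6 markers Aldh1l1 lay lower in stress without overlap (log2 fold change -0.17, adjusted p = 0.386), as did 9.43% of all genes. Aqp4 lay higher without overlap (0.08, adjusted p = 0.560), as did 8.43%. Gfap had 549, 544 and 650 counts in stress, against 1148, 251 and 199 in non-stress, so non-stress 1 lay far above all other libraries. The part of the astrocyte markers in the Itpr2 values was not tested.

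Itpr3, a form better known from epithelial and secretory cells (chromosome 17, 27057002 to 27122223), rested on few counts: 26, 30 and 43 in the stress libraries, against 35, 64 and 50 in the non-stress libraries. Stress 3 lay above non-stress 1 in CPM (0.958 against 0.812), so the groups overlapped. The log2 fold change of -0.56 had the widest interval of the 10 genes (-1.17 to 0.05, adjusted p = 0.446), and a difference of that size was not resolved at this depth.

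Promoter sequence from RefSeq (GRCm38.p6) was at hand for 7 of the 10 genes, in 10 windows of 250 bases before a transcription start. Windows are shown for Itpr2 and Atp2b2, whose groups did not overlap, and for Ryr2, whose groups did. They are printed 5′ to 3′ on the strand of the gene, with CpG pairs in capitals. Only windows free of annotated exon bases are printed, and that of Itpr2 is limited to the 215 bases outside the annotated gene.
Itpr2 (chr6:146502259-146502473, minus strand): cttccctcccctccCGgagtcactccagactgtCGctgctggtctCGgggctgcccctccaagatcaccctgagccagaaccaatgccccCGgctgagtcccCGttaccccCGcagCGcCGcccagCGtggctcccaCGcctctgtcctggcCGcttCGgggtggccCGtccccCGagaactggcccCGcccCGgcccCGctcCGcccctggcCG
Atp2b2, the upstream of its internal starts (chr6:113934682-113934931, minus strand): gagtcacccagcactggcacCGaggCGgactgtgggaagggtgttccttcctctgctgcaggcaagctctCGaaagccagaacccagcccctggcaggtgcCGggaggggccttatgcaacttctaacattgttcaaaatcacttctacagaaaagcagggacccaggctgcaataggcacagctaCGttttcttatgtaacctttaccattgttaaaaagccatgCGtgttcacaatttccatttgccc
Atp2b2, the downstream of its internal starts (chr6:113891540-113891789, minus strand): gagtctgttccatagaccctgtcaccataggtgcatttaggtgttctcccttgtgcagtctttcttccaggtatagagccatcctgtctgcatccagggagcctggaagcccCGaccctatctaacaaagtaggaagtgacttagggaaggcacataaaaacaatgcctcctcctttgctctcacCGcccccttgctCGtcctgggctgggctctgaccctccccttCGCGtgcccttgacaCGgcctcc
Ryr2 (chr13:12106946-12107195, minus strand): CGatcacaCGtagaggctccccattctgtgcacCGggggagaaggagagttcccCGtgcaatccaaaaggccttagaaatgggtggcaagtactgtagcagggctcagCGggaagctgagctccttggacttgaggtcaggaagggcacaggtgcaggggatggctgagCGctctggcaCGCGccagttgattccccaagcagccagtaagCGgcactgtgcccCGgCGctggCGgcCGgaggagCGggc
The full Itpr2 window held 22 CpG pairs at 74.4% GC and that of Ryr2 held 14 at 63.2% GC, while the Atp2b2 windows shown held 6 each, at 52.0% and 55.6% GC. The median over 32851 promoter windows of the same length was 6 CpG pairs and 52.4% GC. The cyclic AMP response element, TGACGTCA, occurs in 1.5% of those windows on either strand, and its core TGACG, which is also part of the full element, in 17.8%. Neither was found in any of the 10 windows. The core of NFAT binding sites, GGAAA, which 55.6% of windows hold on either strand, was found once each in 3 of the 10 windows, 2 of Atp2b2 and 1 of Atp2b1. These matches describe letters in the windows alone. Since the counts are per gene, they do not show which of the Atp2b2 starts was used.

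The ryanodine receptor genes had log2 fold changes slightly above 0, and all 3 overlapped between groups. Ryr2, the heart form that is also the main one in brain (chromosome 13, 11553099 to 12106945), stood at 36.0, 35.7 and 38.3 CPM in stress, against 36.6, 29.7 and 37.7 CPM in non-stress. Only non-stress 2 stood apart, below all other libraries. The log2 fold change of Ryr2 was 0.08 (SE 0.09, 95% interval -0.11 to 0.27, adjusted p = 0.725), and it was -0.01 without non-stress 2 and 0.14 without non-stress 3.

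Ryr3, found in hippocampus and other brain regions (chromosome 2, 112631354 to 113217405), stood at 11.3, 11.3 and 10.1 CPM in stress, against 9.74, 8.56 and 10.7 CPM in non-stress. Stress 1 and 2 lay above all non-stress libraries, and stress 3 lay below non-stress 3. Its log2 fold change of 0.18 (SE 0.10, 95% interval -0.05 to 0.41, adjusted p = 0.498) was the highest of the 10 and ran from 0.10 without non-stress 2 to 0.25 without non-stress 3. Its exons share 916 bases with those of Aven on the opposite strand, and the use of strand in counting is not given in the sources used here, so some of its reads cannot be told apart from those of Aven (663 to 809 counts in stress and 713 to 852 in non-stress).

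Ryr1, the skeletal muscle form (chromosome 7, 29003340 to 29125179), was the most variable gene among the better covered ones. It stood at 4.59, 4.76 and 5.06 CPM in stress, against 5.96, 4.62 and 3.26 CPM in non-stress. All stress values lay inside the non-stress range. The means were 4.80 ± 0.237 CPM in stress and 4.61 ± 1.35 CPM in non-stress (SD, n = 3 each), with a log2 fold change of 0.06 (95% interval -0.38 to 0.49, adjusted p = 0.926). Its sign depended on 1 library: the value was -0.14 without non-stress 3 and 0.28 without non-stress 1. The summed skeletal muscle markers were higher in stress, as given above, and their part in the Ryr1 values was not tested. Ryr1 shares 864 exon bases with the antisense gene Gm26604, which had only 21 to 23 counts in stress and 16 to 27 in non-stress.

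**Figure D2:**
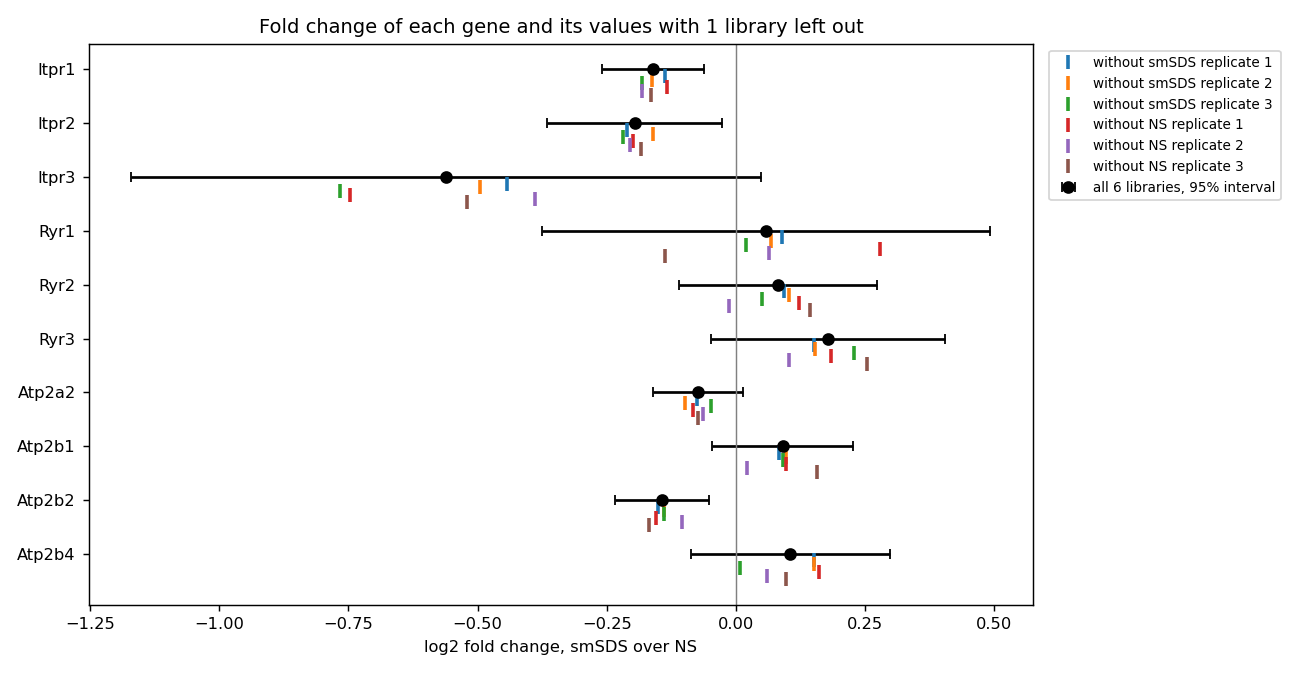
Log2 fold change of stress over non-stress (x axis) for each gene, as a black point with its 95% interval from edgeR, and as coloured ticks with 1 library left out. Only the intervals of Itpr1, Itpr2 and Atp2b2 lie wholly below 0, and the ticks of Ryr1 and Ryr2 fall on both sides of it.

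The store pump gene Atp2a2 encodes SERCA2, the housekeeping form of the family (chromosome 5, 122453513 to 122502225). It stood at 444, 462 and 430 CPM in stress, against 464, 472 and 471 CPM in non-stress. The groups did not overlap, but stress 2 and non-stress 1 were separated by a narrow margin. The means were 445 ± 16.0 CPM in stress and 469 ± 4.43 CPM in non-stress (SD, n = 3 each), with a log2 fold change of -0.07 (SE 0.04, 95% interval -0.16 to 0.01, adjusted p = 0.472). The value was -0.05 without stress 3 and -0.10 without stress 2.

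Among the plasma membrane pumps, Atp2b2 lay lower in stress while Atp2b1 and Atp2b4 overlapped. Atp2b2 encodes PMCA2, a fast pump of neurons and cochlear hair cells (chromosome 6, 113743831 to 114042613). It stood at 562, 557 and 554 CPM in stress, against 609, 644 and 597 CPM in non-stress. The stress libraries lay within a narrow band below all non-stress libraries, of which non-stress 2 was the highest. The means were 558 ± 4.11 CPM in stress and 617 ± 24.6 CPM in non-stress (SD, n = 3 each). The log2 fold change was -0.14 (SE 0.04, 95% interval -0.23 to -0.05, adjusted p = 0.344), or 0.905 times the non-stress level, and it ran from -0.17 to -0.10 with single libraries left out. Its smallest adjusted p over the alternatives tried was 0.0872, without non-stress 1.

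Atp2b1, which encodes PMCA1, the ubiquitous form (chromosome 10, 98914630 to 99026143), stood at 803, 795 and 799 CPM in stress, against 760, 673 and 821 CPM in non-stress. The stress values lay inside the non-stress range, in which non-stress 2 was the lowest. Its log2 fold change of 0.09 (95% interval -0.05 to 0.23, adjusted p = 0.569) was 0.02 without non-stress 2 and 0.16 without non-stress 3. Atp2b4, the gene of PMCA4 (chromosome 1, 133702674 to 133801059), stood at 36.1, 36.3 and 43.7 CPM in stress, against 38.9, 33.5 and 35.8 CPM in non-stress. Only stress 3 lay above all non-stress libraries, and the log2 fold change of 0.10 (95% interval -0.09 to 0.30, adjusted p = 0.643) was 0.01 without it and 0.16 without non-stress 1.

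Within a library the ratio of Atp2b1 to Atp2b2, in CPM, was 1.43, 1.43 and 1.44 in stress, against 1.25, 1.05 and 1.38 in non-stress. All 3 stress ratios lay above the non-stress ratios, and non-stress 3 came close to them. As a share of the 3 pump genes per kilobase of annotated exons, Atp2b1 held 52.6% ± 0.0675 in stress and 48.7% ± 3.38 in non-stress (SD, n = 3 each), and Atp2b2 held 44.3% ± 0.289 in stress and 48.4% ± 3.41 in non-stress. The difference in the Atp2b1 share, 3.84 percentage points, was 2.03 points without non-stress 2. With the longest transcript as length Atp2b1 led in all 6 libraries, at 62.9% in each stress library and 55.6% to 62.1% in non-stress. These are descriptions with no test.

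In the receptor families the shares of each gene overlapped between groups. Itpr1 held 91.8% to 92.4% of the IP3 receptor level per kilobase in stress and 91.2% to 92.2% in non-stress. Ryr2 held 60.4% to 63.4% of the ryanodine receptor level per kilobase in stress and 60.9% to 64.8% in non-stress, with Ryr3 next at 25.5% to 29.0% in stress and 24.9% to 27.9% in non-stress. The ratio of Itpr1 to Ryr2 in CPM, the leading release channel of each family, was 4.72, 4.95 and 4.73 in stress, against 5.58, 6.37 and 5.21 in non-stress. The ratios of Itpr1 to Ryr2 did not overlap and were lower in stress. The ratio of Itpr1 to Atp2a2, also taken, was 0.382, 0.383 and 0.421 in stress, against 0.441, 0.401 and 0.417 in non-stress, and overlapped. How often ratios of other genes lie without overlap was not examined.

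**Figure D3:**
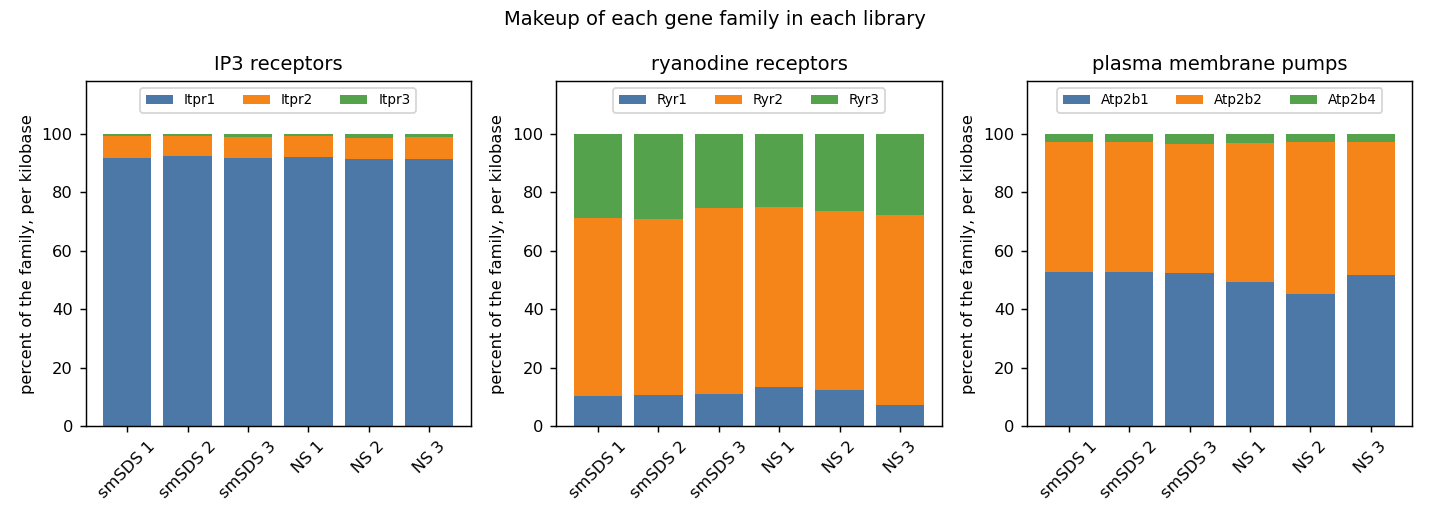
Percent of each gene within its family (y axis), from CPM per kilobase of annotated exons, in each stress (smSDS) and non-stress (NS) library. The plasma membrane pumps here are Atp2b1, Atp2b2 and Atp2b4, without Atp2b3. Itpr1 and Ryr2 lead their families in all 6 libraries, and Atp2b2 exceeds Atp2b1 only in non-stress 2.

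Per kilobase of annotated exons, 3 of the 4 pump genes stood above all release channels, and the exception was Atp2b4. The order of mean levels over the 6 libraries was Atp2a2 (75.1 CPM per kilobase), Atp2b1 (50.9), Atp2b2 (46.6), Itpr1 (10.2), Atp2b4 (3.05), Ryr2 (1.24), Itpr2 (0.805), Ryr3 (0.542), Ryr1 (0.216) and Itpr3 (0.104). Neighbours in this order were separate over all 6 libraries, with 2 exceptions: Atp2b1 overlapped Atp2b2, and Ryr1 overlapped Itpr3. When the longest annotated transcript served as length, 8 of the 10 kept their place and Atp2b1 (109 CPM per kilobase) passed Atp2a2 (80.5). The cDNA of these libraries was started at the poly(A) tail, so coverage along such long transcripts need not be even, and levels per kilobase are approximate.

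**Figure D4:**
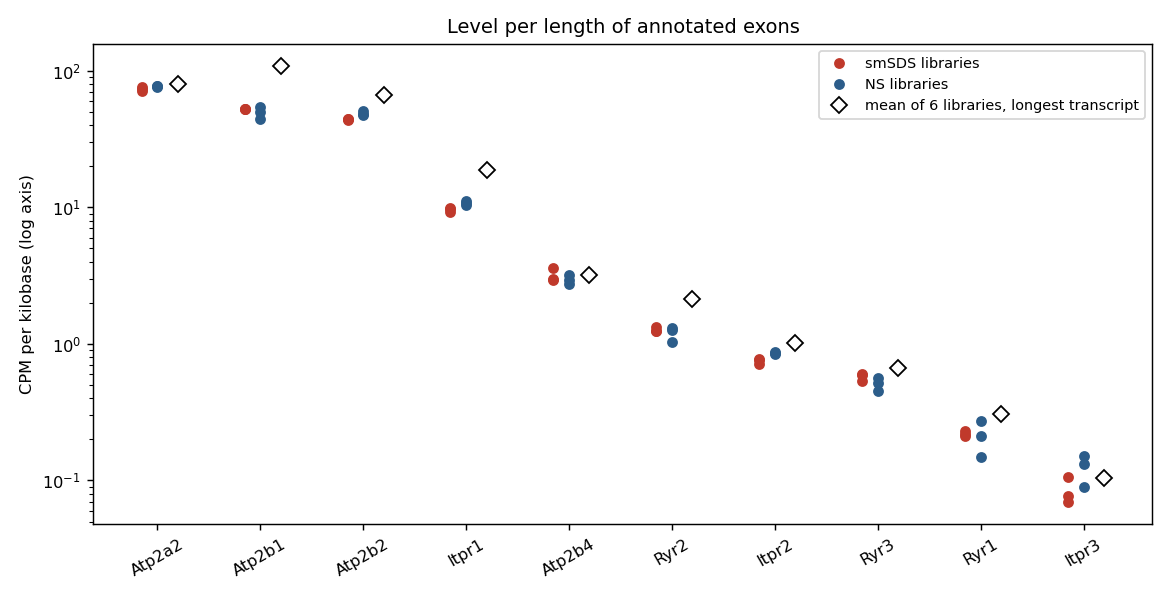
Level of each gene in CPM per kilobase of annotated exons (log axis), with 1 point per stress library (red) and per non-stress library (blue), and open diamonds for the mean of the 6 libraries with the longest transcript as length. The genes span from 75.1 (Atp2a2) to 0.104 (Itpr3), and only the top pair changes order with the choice of length.

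Of 83 other genes that make or remove IP3, bind or move calcium, or act on these channels and pumps, 82 were tested. None passed edgeR's test over all genes, and DESeq2 and limma-voom called 0 as well. At an unadjusted p under 0.05 there were 13 by edgeR, 13 by DESeq2 and 12 by limma-voom, against 12.1%, 10.2% and 12.6% of all genes. Of the 13 by edgeR, 3 were higher and 10 lower in stress, where the shares over all genes tested were 5.80% and 6.27%. In 4 genes all stress libraries lay above all non-stress libraries, and in 16 they lay below, where the shares over all genes tested were 8.43% and 9.43%. The median log2 fold change was -0.01. Trdn, which encodes the muscle protein triadin, had 2, 4 and 3 counts in stress and 0 in each non-stress library, too few to be tested.

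Store-operated entry, by which STIM sensors of the store open ORAI channels of the plasma membrane, had all 5 genes below 0, with a median log2 fold change of -0.13 and 0 called. Orai2 and Stim2 had the smallest p of the 5, and in both, as in Stim1, every stress library lay below every non-stress library, which held for 9.43% of all genes. Orai2 stood at 43.0, 46.2 and 46.5 CPM in stress, against 49.5, 56.5 and 47.5 CPM in non-stress. Stim2 stood at 46.5, 46.5 and 46.4 CPM in stress, against 49.3, 50.1 and 50.7 CPM in non-stress. Orai2 had an adjusted p of 0.388 and Stim2 one of 0.408. The calcium-binding and chaperone proteins of the store had all 6 genes above 0, with a median of 0.12 and 0 called. Pdia3, a disulphide isomerase that binds calreticulin, stood at 372, 374 and 375 CPM in stress, against 361, 319 and 336 CPM in non-stress (log2 fold change 0.14, adjusted p = 0.351). Hspa5, the chaperone BiP, stood at 502, 522 and 530 CPM in stress, against 502, 468 and 436 CPM in non-stress (log2 fold change 0.15, adjusted p = 0.363). In Hspa5 stress 1 and non-stress 1 all but coincided. Without non-stress 1 edgeR called Pdia3 (0.19, adjusted p = 0.0256) and Hspa5 (0.20, adjusted p = 0.0448).

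Besides Pdia3 and Hspa5, the genes among the 8 of smallest p were all lower in stress, and none of them passed. Itpkc, a kinase that phosphorylates IP3, stood at 5.98, 6.44 and 6.82 CPM in stress, against 7.26, 8.94 and 9.29 CPM in non-stress (log2 fold change -0.40, adjusted p = 0.344). Atp2b3, the remaining PMCA gene, stood at 33.1 ± 2.20 CPM in stress and 37.9 ± 0.917 CPM in non-stress (SD, n = 3 each), with a log2 fold change of -0.19 (adjusted p = 0.351). Jph3, a junctophilin that ties the store to the plasma membrane in neurons, stood at 206, 212 and 215 CPM in stress, against 239, 268 and 224 CPM in non-stress (log2 fold change -0.21, adjusted p = 0.346). Cabp1, a calmodulin relative that binds IP3 receptors, had a fitted log2 difference of -0.27 (adjusted p = 0.351), and Tmbim6, a store membrane protein linked to calcium leak, had -0.20 (adjusted p = 0.351). Homer3, of the Homer scaffolds that join glutamate receptors to IP3 receptors, had -0.64 on only 66 to 89 counts in stress and 95 to 183 in non-stress (adjusted p = 0.363). The other groups had 0 called as well. The IP3-producing phospholipase C genes had a median of -0.05 over 12 genes and 1 below an unadjusted p of 0.05, Plch2 (-0.14). Of the 6 genes of the mitochondrial uniporter, which takes up calcium released near mitochondria, 5 were above 0, with a median of 0.08. The 8 sodium-calcium exchangers, which expel calcium against the entry of sodium, had 3 above 0 and a median of -0.01. The 22 tested partners of the channels, among them the Homer, junctophilin, FKBP and calmodulin genes, had 11 above 0 and 11 below, with a median of 0.00, and 6 of them lay lower in stress without overlap, where 9.43% of all genes did. The 7 other store channels and leak genes had 2 above 0 and a median of -0.07, and the 4 genes for IP3 removal had 1 above 0 and a median of -0.10. The 4 partners of the pumps, such as Pln and Nptn, had a median of -0.01, the 5 other pump genes one of -0.03, and the 3 cytosolic buffers Calb1, Calb2 and Pvalb one of -0.05.

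**Figure D5:**
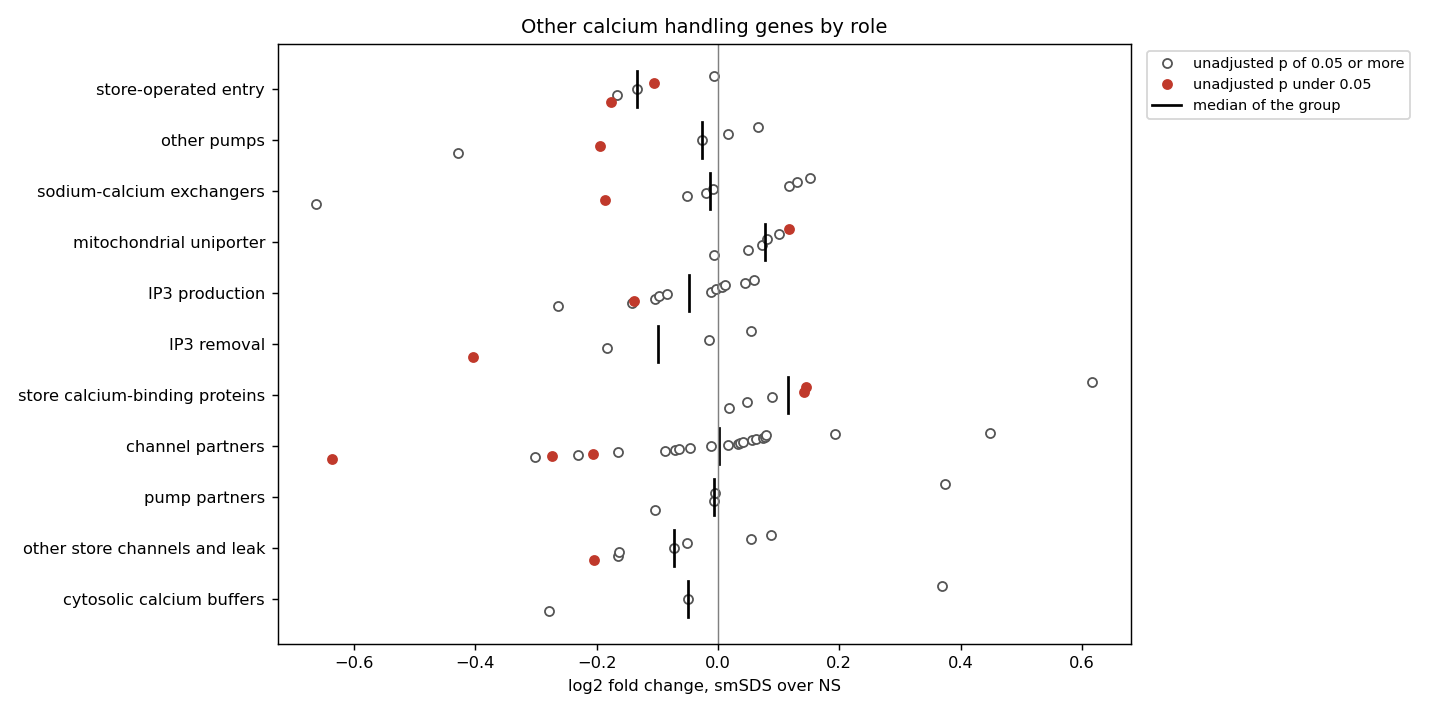
Log2 fold change of stress over non-stress (x axis) of 82 other calcium handling genes, grouped by role, with filled points for an unadjusted p under 0.05 and a bar for each group's median. The store-operated entry genes lie at or below 0 and the store calcium-binding genes above it, and none of the 82 passed the adjusted test.

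Without non-stress 1 edgeR called 5 of these genes, among 3.85% of the 19616 genes then tested. Besides Itpkc (-0.51, adjusted p = 0.0218), Pdia3 and Hspa5 they were Homer2 (0.34, adjusted p = 0.0121) and Calb1, the buffer protein calbindin (0.88, adjusted p = 1.10e-05). For Calb1 the counts were 6121, 6313 and 7126 in stress, against 8041, 3862 and 3421 in non-stress, so non-stress 1 lay above all stress libraries and the other non-stress libraries far below them. Non-stress 1 is also the library that lay beside the stress libraries on the first principal component. None of the 10 release and pump genes was called without it.

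The genes whose centred log2 CPM lay nearest to that of Itpr1 over the 6 libraries, among 13973 genes whose range was at least 0.5 times that of Itpr1, were Ism1, Clip4 and Pex5l, at mean absolute differences of 0.0152, 0.0194 and 0.0197 on the log2 scale. Pex5l, a binding partner of HCN channels in brain, stood at 104, 108 and 114 CPM in stress, against 124, 120 and 120 CPM in non-stress (adjusted p = 0.344). The genes nearest to Ryr3 were Usp45, Amd-ps4 and Cox16 (0.0161, 0.0253 and 0.0262). The likeness is a description only.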

How the data were processed

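The authors deposited raw counts, as whole numbers, in 1 table that pairs each NCBI Gene ID with a symbol. They were not normalised. Per the labels' protocols, libraries were made from total RNA by the SMARTer Ultra low RNA kit followed by TruSeq. Per the submitters' processing notes, Trimmomatic 0.38, HISAT2 and StringTie were used with build GRCm38 (mm10). How reads were counted, with which annotation release, and whether by strand, is not given in the sources used here.

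Of 45777 genes, edgeR's filterByExpr kept 19227. Library sizes were scaled by TMM (factors 0.9962 to 1.0028), and a two-sided quasi-likelihood test was fitted in edgeR 4.0.16 under R 4.3.3, on group alone, stress over non-stress, with Benjamini-Hochberg adjustment over all genes. CPM use library totals. Log2 CPM for the principal components and the likeness used a prior count of 2. Intervals of fold changes are from the same fit and cover the spread between libraries. Lengths and GC content came from GENCODE M21, and positions from NCBI's gene table for GRCm38.p6. No pair of libraries of a group agreed within sampling noise. The chi-square per degree of freedom was 4.75 to 6.48 between stress libraries and 14.1 to 21.1 between non-stress libraries, which thus differed more among themselves.

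The 10 genes, the 83 further genes (of which the 8 with the smallest p-values were to be named, with any called) and the marker lists were chosen with earlier results of these data known. Plch2, Trdn, Homer2, Calb1, Orai2, Stim2 and the examples given for gene groups are named outside that rule, after their values were seen. Alternatives were DESeq2 1.42.0, limma-voom (limma 3.58.1), other size factors and filters, each library left out, replicate number as a block, and a correction for GC content and length (17306 of 19227 genes, 90.0%). For the member of smallest p-value in each direction, the 3 genes nearest in profile are named. Every count of genes without overlap or under an unadjusted p of 0.05, under these alternatives, was added after seeing the data.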

Additional observations from a re-analysis of the deposited data

How the results depend on the processing

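None of the 10 genes was called at 0.05 under any of the alternatives run. At a threshold of 0.1, applied to the main fit alone, the number was 0 as well. Without non-stress 1 the adjusted p of Atp2b2 by edgeR was 0.0872, which is under 0.1. The number of genes called in all was 1 with the main settings, 2 with limma-voom, 3 with a correction for GC content and length, 5 at a threshold of 0.1 and 116 with DESeq2. With single libraries left out it ranged from 1 to 756, the highest without non-stress 1. The cause was not tested. The count of further calcium genes called ranged from 0 to 5 with single libraries left out, and those at an unadjusted p under 0.05 numbered 21 without non-stress 1, where 19.5% of all genes did so, and 8 without stress 1, where 6.52% did, against 13 and 12.1% with all libraries. With single libraries left out the log2 fold change of Ryr1 ranged from -0.138 to 0.279 and that of Ryr2 from -0.013 to 0.143; no other of the 10 changed sign under any alternative run. Itpr3 had no value with the filter of 50 counts in 3 libraries, and DESeq2 gave it no adjusted p. The genes without overlap were the same 4 with TMM-scaled CPM. With single libraries left out they were 4 to 6, where by construction the number can only stay or rise.

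No label says whether the replicate numbers pair the samples. Deviations from the group means of same-numbered libraries had correlations of 0.016, -0.03 and 0.021 over genes. These values show no large shared difference, but with so few libraries they cannot exclude a pairing. With replicate number as a block 2 genes were called in all, and none of the 10. Levels per kilobase depend on the length taken, most for Atp2b1 and Itpr1 (10.2 or 18.9 CPM per kilobase). Depth limits Itpr3 most, with 26 to 64 counts.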
